A study of Mus musculus with 4 samples.

Results

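The genes described here encode the proteins of the nuclear pore complex, the channel through which RNA and protein pass between nucleus and cytoplasm. Members were chosen by gene symbol, from the nucleoporins and the proteins that are stably bound to them. The rule uses no measured value, but it was set with earlier results of these data known. All 32 members were found among the 21957 genes of the expression table. They fall into 6 structural groups, with 9 members in the Y complex, 5 in the inner ring, 5 in the central channel, 6 on the cytoplasmic side, 3 in the nuclear basket and 4 in the pore membrane.

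The study sequenced mRNA from mouse oocytes before culture and after culture with or without tubastatin A (TubA), an inhibitor of the deacetylase HDAC6. There were 4 libraries of 1 pool each, with 100 oocytes per pool, from B6D2F1 hybrid (C57BL/6 x DBA) females of 6 to 8 weeks. GV oocytes, which still hold the intact nucleus called the germinal vesicle, and MII oocytes, arrested in metaphase of meiosis II, were untreated. TubA-10 and TubA-20 oocytes were cultured from the GV stage with 10 or 20 µM TubA, and the culture of MII and TubA oocytes lasted 12 h. By the study's methods, MII oocytes were kept only if they had extruded a polar body, so that library holds oocytes that completed the passage. The treatment field of the labels gives 20 µM for TubA-10 and 11 µM for TubA-20, against their titles, and the titles and the study's methods were followed. The title of the MII sample says embryo, whereas its short label says MII.

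The nuclear pore is a ring-shaped assembly that spans the nuclear envelope. The Y complex forms its outer rings, the inner ring holds the channel, nucleoporins rich in phenylalanine-glycine (FG) repeats fill it, and filaments and a basket extend to the cytoplasm and the nucleus. In the oocyte the envelope breaks down when meiosis resumes and the pores come apart with it. The growing oocyte stores mRNAs that are later translated or degraded while transcription is silent, and lengthening of the poly(A) tail is a known step in activating stored mRNAs.

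All 12 oocyte markers, among them the zona pellucida genes and *Gdf9*, were at or above 5 FPKM in all 4 libraries. FPKM, the unit of the deposited values, is a fragment count scaled by transcript length and by the library's mapped fragments. The markers of cumulus and granulosa cells, the follicle cells around the oocyte, summed to between 8.65 and 16.6 FPKM over 12 genes, with *Foxl2* at 0 in all 4 libraries, and the 9 blood markers summed to between 5.18 and 6.64 FPKM. The follicle cell sum was 16.6 (GV), 11.1 (MII), 8.65 (TubA-10) and 14.8 FPKM (TubA-20), with the markers going different ways. *Inha*, the inhibin alpha gene, had 7.502 FPKM in GV and between 0.239 and 0.314 in the cultured libraries, whereas *Cyp19a1*, *Tnfaip6* and *Ptx3* were highest in TubA-20, at 10.3, 1.57 and 1.19 FPKM. The part of these markers in the results below was not tested. For 9193 genes at or above 1 FPKM throughout, the median log2 difference from GV was 0.13 (MII), 0.14 (TubA-10) and 0.19 (TubA-20), a shift against which differences from GV are to be read. With 1 library per condition no difference has a replicate check, and no p-value or standard error is given. Differences below are log2 ratios of FPKM + 1, which understate the change of low genes, and a member is called higher or lower only where it was more than 2-fold apart on that scale.

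The members summed to 1891 (GV), 2335 (MII), 2361 (TubA-10) and 2884 FPKM (TubA-20), and the median member was at 22.4, 34.7, 28.6 and 39.7 FPKM. In each library 26 of the 32 members had at least 5 FPKM, against 30.6% to 32.6% of all genes, while 3 were below 1 FPKM, and none was at 0. FPKM is relative to the other mRNAs of a library, and in pooled oocytes fewer cells of a type and less RNA per cell cannot be told apart. The libraries were prepared by selection on the poly(A) tail, so more mRNA and longer tails also cannot be told apart.

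**Figure D1:**
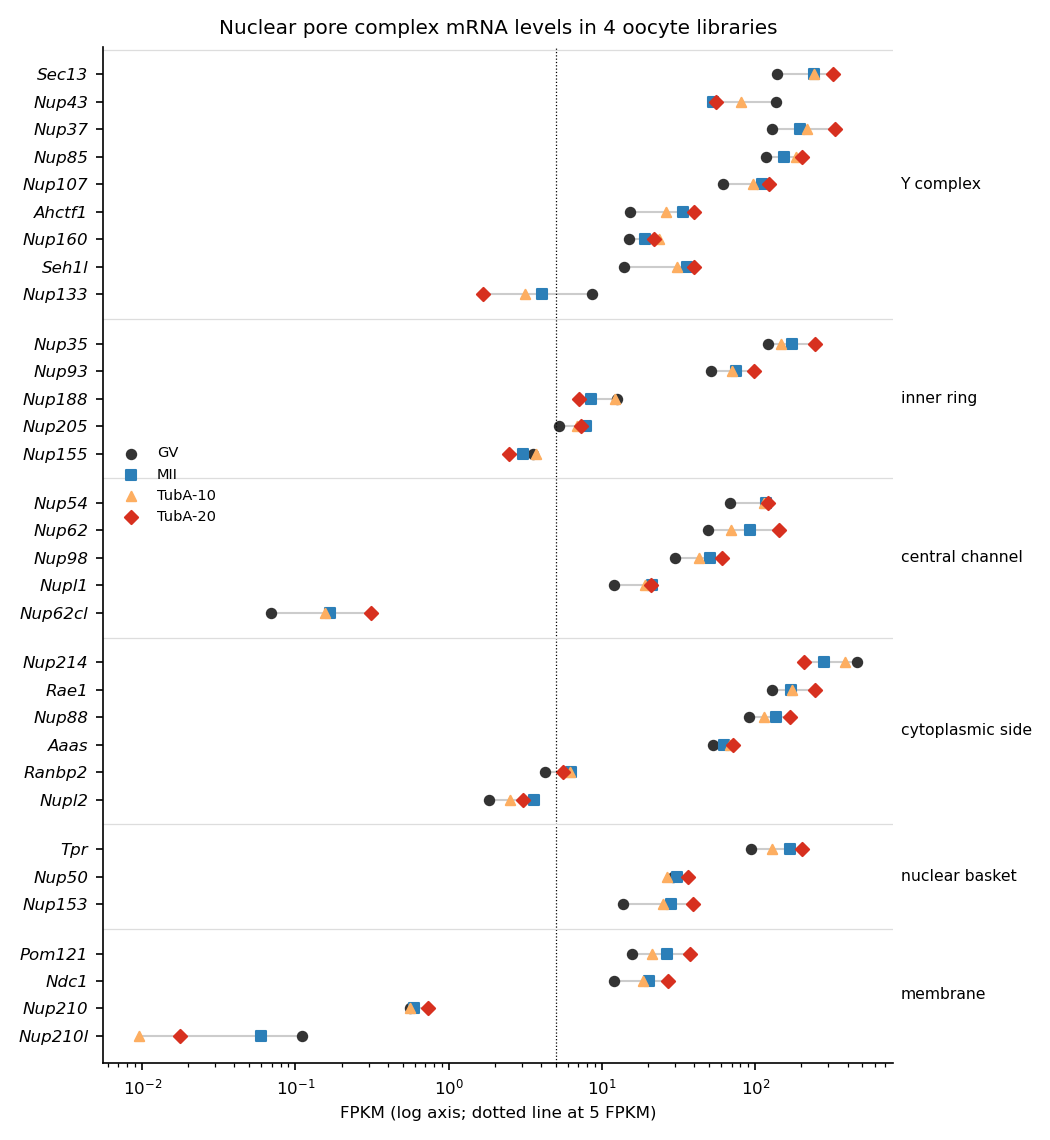
Level of each nuclear pore complex mRNA in the GV, MII, TubA-10 and TubA-20 libraries, in FPKM on a log axis, 1 row per member, ordered by structural group. Each point is 1 library, and most members have GV at the left and TubA-20 at the right, while Nup133, Nup43, Nup188, Nup214 and Nup210l have GV at the right. The dotted line marks 5 FPKM.

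Most pore mRNAs were lowest in GV and highest in TubA-20. Of the 27 members with at least 5 FPKM in 1 library, 22 (81.5%) were lowest in GV and 19 (70.4%) were highest in TubA-20. Over all 7897 genes at that level the shares were 48.4% and 41.1%. With *Gapdh* set equal, 23 members were lowest in GV and 14 (51.9%) highest in TubA-20, against 53.7% and 30.1% of all genes. TubA-20 was lowest for 3 of the 27 members (11.1%), namely *Nup133*, *Nup188* and *Nup214*, against 35.6% of all genes at that level. The order GV, TubA-10, MII, TubA-20 from low to high was found for 13 of the 27 (48.1%) and for 28.5% of all genes. TubA-10 lay between GV and MII for 19 members (70.4%), a share close to the 68.8% over all genes.

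The 3′ ends of the mRNAs are shown next because stored oocyte mRNAs are handled through them. In this set, members that were above GV in TubA-20 stand beside members that were below it. Each line is 30 bases of a 3′ UTR in the principal GENCODE M21 transcript, 5′ to 3′ on the mRNA strand and written as DNA. Capitals mark the cytoplasmic polyadenylation element (CPE) TTTTAT or the polyadenylation signal AATAAA or ATTAAA.
Nup62: tcatgtctaTTTTATttctctgcactctat
Nup37: aaaaatccttatTTTTATatcaaacatact
Nup35: tccaAATAAActttgtcaatTTTTATgtgc
Nup98: tTTTTATtaaaaaatatatatatatatata
Nup43: tagttatcaaaaTTTTATcaccagaaagtg
Nup133: ctgcattgccttAATAAAaacgaggttttc
Nup188: atttatacaaatATTAAAagtgctgtttat
Nup214: ttttcgtctgctATTAAAgtgtttggtctg

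On GRCm38, the build the deposited values were made on (mm10), these windows lie in the 3′ UTRs of their genes. *Nup62* is at chr7:44830713-44830742 on the plus strand, *Nup37* at chr10:88178300-88178329 plus, and *Nup35* at chr2:80658873-80658902 plus. *Nup98* is at chr7:102119468-102119497 on the minus strand, *Nup43* at chr10:7678811-7678840 plus, and *Nup133* at chr8:123897127-123897156 minus. *Nup188* is at chr2:30344231-30344260 plus and *Nup214* at chr2:32052329-32052358 plus. In the last 3 sequences only the signal is marked, since no CPE was found near the end. A member without a CPE was shown only if it was below GV in both MII and TubA-20. *Seh1l*, *Nup153*, *Ahctf1*, *Sec13*, *Pom121*, *Ndc1* and *Tpr* were more than 2-fold higher in TubA-20 than in GV, had no CPE found near the end and are not shown. The lines therefore cannot show whether a CPE goes with a high level.

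The CPE was searched as TTTTAT or TTTTAAT, on the mRNA strand alone, in the last 100 bases of each transcript with a 3′ UTR of at least 100 bases. It was present in 7 of 27 such members (25.9%), against 21.3% of 7337 genes with at least 5 FPKM and 17.9% of all genes with such a UTR. The 7 were *Nup35*, *Nup37*, *Nup54*, *Nup62*, *Nup98*, *Rae1* and *Ranbp2*. All 7 were above GV in TubA-20, with a median log2 difference of 0.99, whereas 16 of the other 20 were above GV and 4 below, with a median of 0.65. The other 20 include *Nup155*, *Nup210*, *Nup62cl* and *Nupl2*, below 5 FPKM in every library, with differences of -0.39, 0.15, 0.29 and 0.52. These lower the median of the 20, whereas all 7 members with the element had at least 5 FPKM in 1 library. The medians of 0.99 and 0.65 are therefore not at a like level. Over all genes with at least 5 FPKM, a filter not applied to the members here, the median difference was 0.72 with the element and 0.09 without it. *Nup43*, whose 3′ UTR is shorter than the 100 bases required, carries the element too and was among the members that were low. A match is a description of the sequence, and polyadenylation was not measured.

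The Y complex held both the members that were high after culture and those that were low. Among the former was *Seh1l*, a propeller protein of the complex, at 13.8 (GV), 35.7 (MII), 30.7 (TubA-10) and 39.8 FPKM (TubA-20). *Ahctf1* encodes ELYS, which binds chromatin and starts pore assembly after mitosis, and it had 15.2, 33.6, 26.2 and 39.6 FPKM in the same order of libraries, which is kept below. On the log2 scale these levels put *Seh1l* above GV by 1.31 (MII), 1.10 (TubA-10) and 1.46 (TubA-20), and *Ahctf1* by 1.09, 0.75 and 1.32.

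*Nup37*, an accessory member of the Y complex, stood at 129, 196, 216 and 333 FPKM. *Sec13*, which also serves in the COPII coat of secretory vesicles, stood at 139, 242, 242 and 322 FPKM. For both genes the cultured libraries were above GV, and the log2 difference between TubA-20 and GV was 1.36 for *Nup37* and 1.21 for *Sec13*. In MII and TubA-10 the differences were 0.59 and 0.74 for *Nup37* and 0.80 in both for *Sec13*. With *Gapdh* set equal, TubA-10 passed 2-fold for both genes and MII for *Sec13*. *Nup37* was the pore mRNA with the highest level in TubA-20.

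*Nup133*, a stem protein of the Y complex, had 8.56 (GV), 4.08 (MII), 3.13 (TubA-10) and 1.66 FPKM (TubA-20). GV was the highest library and TubA-20 the lowest, and the log2 difference from GV was -0.91 (MII), -1.21 (TubA-10) and -1.85 (TubA-20). *Nup43*, another propeller protein, had 136, 53.1, 81.1 and 55.0 FPKM. Its log2 difference from GV was -1.34 (MII), -0.74 (TubA-10) and -1.29 (TubA-20), with TubA-10 between GV and the other cultured libraries. Subunits of one complex thus differed in direction. The ratio of its highest to its lowest mRNA was 16.2 (GV), 59.3 (MII), 77.3 (TubA-10) and 200.3 (TubA-20), and *Nup133* was the lowest in every library. The highest was *Nup37* in TubA-20 and *Sec13* in the other libraries. The ratio rests on the low level of *Nup133* and does not describe the spread of the other members. The other 3 members, *Nup85*, *Nup107* and *Nup160*, were above GV in each cultured library, by 0.32 to 0.995 on the log2 scale, and none passed 2-fold.

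In the inner ring, which anchors the channel, no member was more than 2-fold apart between any pair of libraries on the deposited values. *Nup35*, a membrane-binding nucleoporin, was the highest, at 122, 174, 147 and 243 FPKM, with a log2 difference of 0.99 between TubA-20 and GV that passed 2-fold with equal upper quartiles (1.02) or equal *Gapdh* (1.06). *Nup155*, a scaffold nucleoporin, was the lowest, at 3.55, 3.04, 3.73 and 2.48 FPKM. The pair of large scaffold proteins differed in direction: the log2 difference between TubA-20 and GV was -0.74 for *Nup188* and 0.41 for *Nup205*. *Nup93*, the organizer of the ring, was 0.92 above GV in TubA-20.

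In the central channel *Nup62*, the FG nucleoporin at the core of the channel trimer, had the largest positive difference of the 32 members between TubA-20 and GV. It had 48.9 (GV), 92.6 (MII), 69.1 (TubA-10) and 143 FPKM (TubA-20), and was above GV by 0.91, 0.49 and 1.53 on the log2 scale. Its partner *Nup54* had 68.5, 117, 114 and 121 FPKM, so that the cultured libraries were close to each other and above GV. The mRNAs of the trimer therefore did not move alike: the log2 difference between TubA-20 and MII was 0.62 for *Nup62*, 0.05 for *Nup54* (below 0 with the median difference set to 0 or with *Gapdh* set equal) and -0.01 for *Nupl1*, the gene for NUP58. *Nup98*, whose mRNA encodes both NUP98 and the Y complex protein NUP96, was 0.99 above GV in TubA-20. The paralogue *Nup62cl* stayed below 1 FPKM, at 0.069, 0.169, 0.156 and 0.31 FPKM. In M21 *Nupl1* is annotated only by a readthrough transcript and shares 48.8% of its exon bases with a neighbouring gene model, so its level is uncertain.

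On the cytoplasmic side *Nup214*, an FG nucleoporin that docks export complexes, was the most abundant pore mRNA of the GV, MII and TubA-10 libraries, at 459 (GV), 281 (MII), 385 (TubA-10) and 208 FPKM (TubA-20). Its log2 difference from GV was -0.70 (MII), -0.25 (TubA-10) and -1.13 (TubA-20), and that in TubA-10 turned to 0.01 with *Gapdh* set equal. *Nup88*, its binding partner, differed from GV by 0.59 (MII), 0.34 (TubA-10) and 0.88 (TubA-20). *Rae1*, an mRNA export factor that binds NUP98, had 128, 172, 173 and 245 FPKM and was the highest member of the group in TubA-20. *Nupl2* was the lowest at 1.83, 3.58, 2.52 and 3.06 FPKM. *Aaas* and *Ranbp2*, the gene for the large filament protein NUP358, were above GV by 0.22 to 0.47 in the cultured libraries. Processed copies of *Ranbp2* are annotated in the mouse genome, so its level is uncertain.

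In the nuclear basket *Nup153*, which anchors the basket to the ring, had 13.7 (GV), 28.3 (MII), 24.9 (TubA-10) and 39.0 FPKM (TubA-20). *Tpr*, the main filament of the basket, had 94.3, 169, 129 and 202 FPKM. Both were lowest in GV and highest in TubA-20, with log2 differences between them of 1.44 and 1.09, and for both TubA-10 was below MII. *Nup50*, a mobile basket protein that binds importins, varied least of the 3, at 29.1, 30.6, 26.4 and 36.4 FPKM.

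In the membrane group, the proteins that hold the pore in the envelope, *Pom121* had 15.8 (GV), 26.5 (MII), 21.2 (TubA-10) and 37.3 FPKM (TubA-20). *Ndc1* had 11.9, 20.3, 18.5 and 26.8 FPKM. Both followed the order GV, TubA-10, MII, TubA-20 and were above GV in TubA-20 by 1.19 and 1.11. *Nup210*, which encodes the third membrane nucleoporin, GP210, was between 0.559 and 0.737 FPKM in all 4 libraries. Its paralogue *Nup210l* was at 0.11, 0.0599, 0.0095 and 0.0176 FPKM, levels at which no difference can be read.

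**Figure D2:**
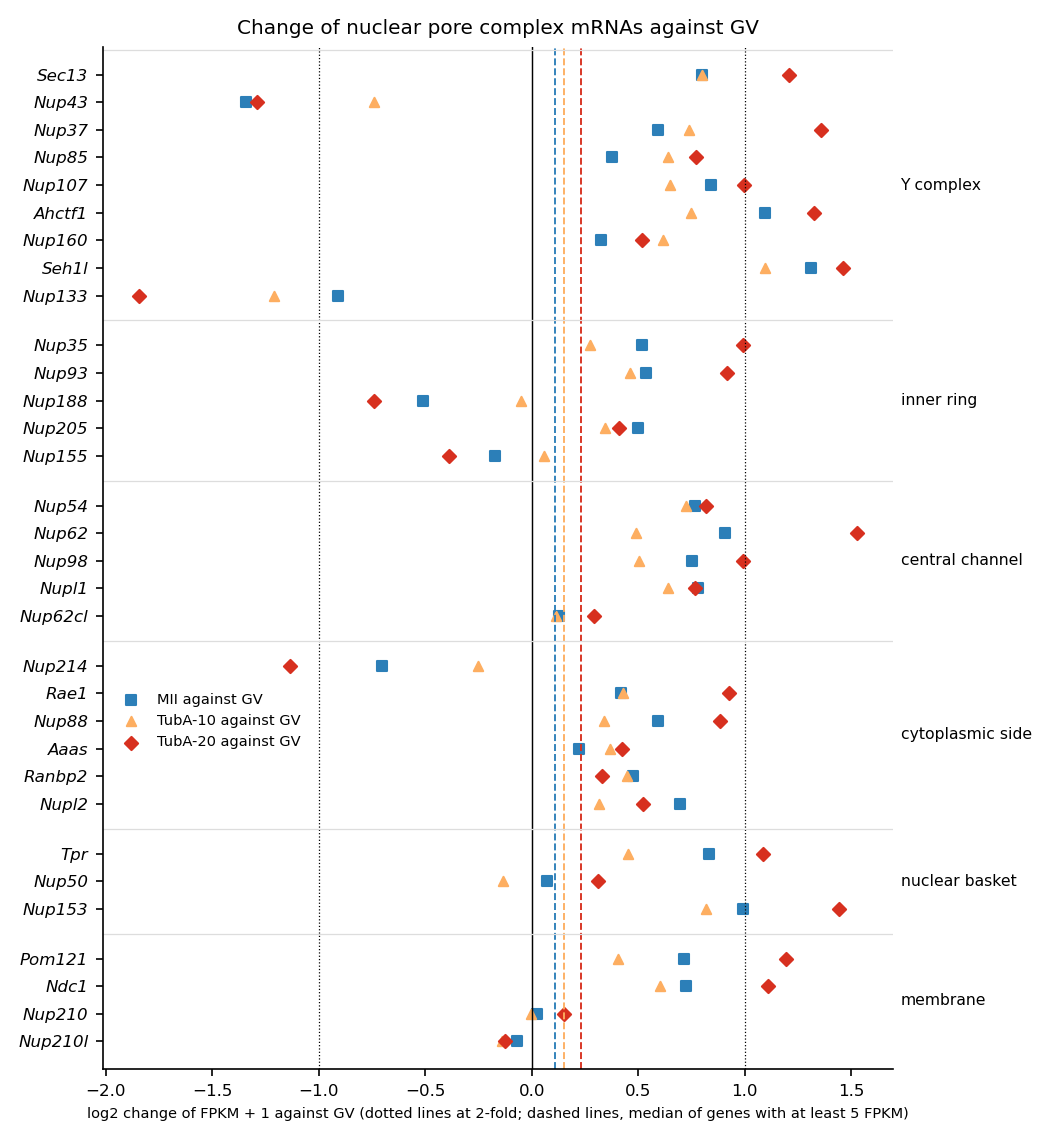
Log2 difference of FPKM + 1 from GV for each nuclear pore complex mRNA in MII, TubA-10 and TubA-20, with dotted lines at 2-fold and dashed lines at the median of genes with at least 5 FPKM. In TubA-20, 9 members lie beyond the upper limit and 3 beyond the lower.

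During normal maturation (MII against GV), 26 members were above GV and 6 below (with *Nup50* below too once the median difference of all genes was set to 0), with a median log2 difference of 0.53. Of genes with at least 5 FPKM, 53.4% were above GV. *Ahctf1* and *Seh1l* were more than 2-fold higher and *Nup43* more than 2-fold lower. Over all genes 3.05% were higher and 8.34% lower by that rule, and over genes with at least 5 FPKM in 1 of both libraries 8.26% and 20.8%, with a median of 0.11. The members' own shares were 6.25% and 3.125%. With the median difference of all genes set to 0, *Ahctf1* fell short of 2-fold, at 0.96, and *Nup133* passed it, at -1.03. With *Gapdh* set equal, *Nup62*, *Nup107*, *Nup153*, *Sec13* and *Tpr* passed it too.

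With 10 µM TubA against GV, *Seh1l* was higher and *Nup133* lower, and the median of the 32 members was 0.44. The shares over all genes were 0.742% and 5.6%, the members' own 3.125% in each direction, and over genes with at least 5 FPKM 1.77% and 14.2%, with a median of 0.15. *Seh1l* fell short of 2-fold, at 0.94, when the median difference was set to 0. With *Gapdh* set equal, 5 members were higher, *Seh1l* with *Ahctf1*, *Nup37*, *Nup153* and *Sec13*.

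With 20 µM TubA against GV, 9 members were higher, *Nup62*, *Seh1l*, *Nup153*, *Nup37*, *Ahctf1*, *Sec13*, *Pom121*, *Ndc1* and *Tpr*, and 3 were lower, *Nup133*, *Nup43* and *Nup214*. These are 28.1% and 9.38% of the members, and over all genes 7.61% were higher and 11.7% lower. Among genes with at least 5 FPKM these shares were 20.2% and 26.8%, and the 27 members at that level held all 12 calls. The median difference was 0.79 over the 32 members and 0.92 over the 27, against 0.23 over all genes at that level. Another 3 members, *Nup35*, *Nup98* and *Nup107*, lay just under the limit, between 0.99 and 0.995. With the median difference of all genes set to 0, *Ndc1*, *Pom121*, *Sec13* and *Tpr* fell short of 2-fold and 5 members were above it. With equal upper quartiles or equal *Gapdh*, 12 members were above it, with *Nup35*, *Nup98* and *Nup107* added. No member with at least 5 FPKM changed sign under any scaling tried in this comparison.

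Against MII, no member was more than 2-fold apart at either dose on the scale of FPKM + 1. These comparisons set treated beside untreated oocytes after equal culture, but only MII oocytes were selected for a polar body. Drug, that selection and meiotic stage cannot be told apart at either dose. The study describes the passage from meiosis I to meiosis II as impaired in TubA-treated oocytes. The stage that each treated pool had reached was not tested here. At 10 µM the median was -0.10, the range ran from -0.42 for *Nup62* to 0.60 for *Nup43*, and over all genes 0.515% were higher and 0.128% lower (1.29% and 0.206% of genes with at least 5 FPKM). At 20 µM the median was 0.20, with 23 members above MII and 9 below (55.6% of genes with at least 5 FPKM were above MII), and over all genes 0.328% were higher and 2.44% lower (0.542% and 6.09% of genes with at least 5 FPKM). With *Gapdh* set equal this median was 0.073, and *Nup43*, *Nup54*, *Nup107* and *Seh1l* were below MII, *Nup43* and *Nup54* also with the median difference set to 0. At 20 µM *Nup37* stood 0.76 and *Nup62* 0.62 above MII. The difference of *Nup133*, a low member with 4.08 FPKM in MII and 1.66 in TubA-20, was -0.93. It passed 2-fold with *Gapdh* set equal and, at -1.25, with a pseudocount of 0.1 FPKM. Differences of this size have no replicate spread to be set against.

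At 10 µM 22 of the 32 members were below MII, and at 20 µM 23 were above it. Of genes with at least 5 FPKM, 50.6% were above MII at 10 µM and 55.6% at 20 µM. Many members therefore lay on opposite sides of MII at the different doses. The log2 difference of *Nup214* from MII was 0.45 at 10 µM and -0.43 at 20 µM, and that of *Nup188* 0.46 and -0.23. *Nup62*, *Tpr*, *Pom121* and *Nup35* were among the members below MII at 10 µM and above it at 20 µM. *Nup62* had a gap of 1.04 between the doses, which was 0.97 with the median difference set to 0 and 0.84 with *Gapdh* set equal. Both comparisons use the same MII library.

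**Figure D3:**
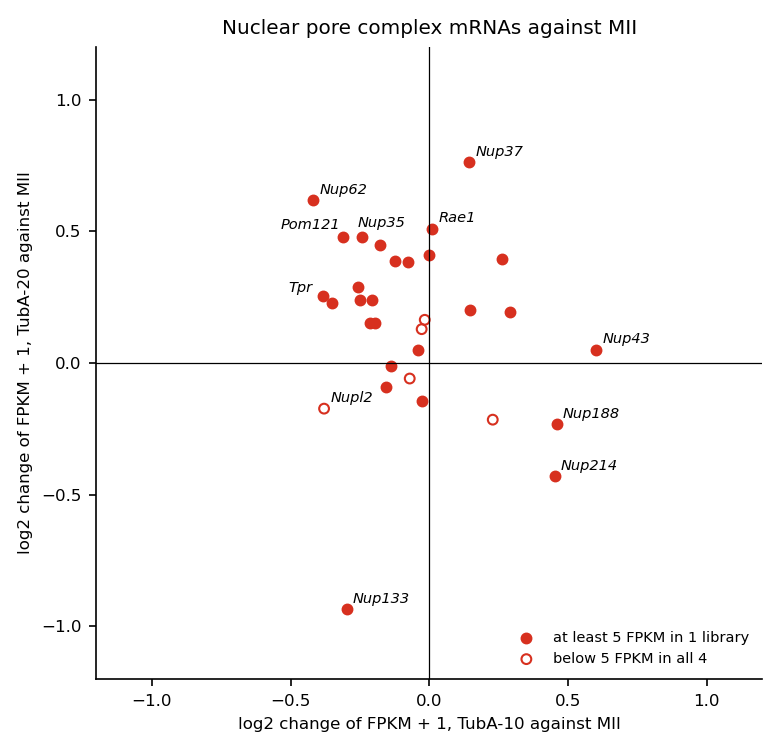
Log2 difference of FPKM + 1 from MII for each nuclear pore complex mRNA, with TubA-10 on the horizontal and TubA-20 on the vertical axis, both set against the same MII library. Filled points had at least 5 FPKM in 1 library, and all points lie within 1 log2 unit of MII on both axes.

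The carriers and factors that work with the pore were examined as lists of genes fixed by function. Between TubA-20 and GV, the median log2 difference over genes with at least 5 FPKM was 0.92 for the 27 pore members, -0.07 for 11 importins, -0.09 for 5 exportins, -0.34 for 6 genes of the Ran cycle, 0.44 for 8 genes of mRNA export and 0.44 for 14 genes of the lamina and envelope. Over all genes 7.61% were higher and 11.7% lower, and over genes with at least 5 FPKM 20.2% and 26.8%. By count, 1 of 17 importins was higher and 3 lower, and 0 of 7 exportins passed 2-fold in either direction. Of the 7 Ran cycle genes 0 were higher and 2 lower, of 9 mRNA export genes 3 were higher and 2 lower, and of 19 lamina and envelope genes 2 were higher and 2 lower. With the median difference set to 0, none of these genes was higher, 3 Ran cycle genes were lower and 4 lamina and envelope genes were lower.

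*Ran*, the GTPase that gives transport its direction, had 38.1 (GV), 61.3 (MII), 61.4 (TubA-10) and 57.8 FPKM (TubA-20). The main carriers showed little difference: *Kpnb1*, importin beta, was between 21.9 and 25.03 FPKM and *Xpo1*, the major exportin, between 13.2 and 16.2 FPKM. The oocyte importin alpha *Kpna7* was between 179 and 240 FPKM. By contrast, *Nxf1*, the principal export receptor for mRNA, had 162, 29.6, 40.6 and 11.1 FPKM and its log2 difference in TubA-20 was -3.75 from GV and -1.34 from MII. *Ranbp3*, a cofactor of export by XPO1, had 57.0, 12.5, 16.3 and 7.33 FPKM. The importin alpha *Kpna2* was highest in TubA-10, at 682 FPKM, beside 481 (GV), 290 (MII) and 198 (TubA-20), which put it 1.23 above MII at 10 µM.

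**Figure D4:**
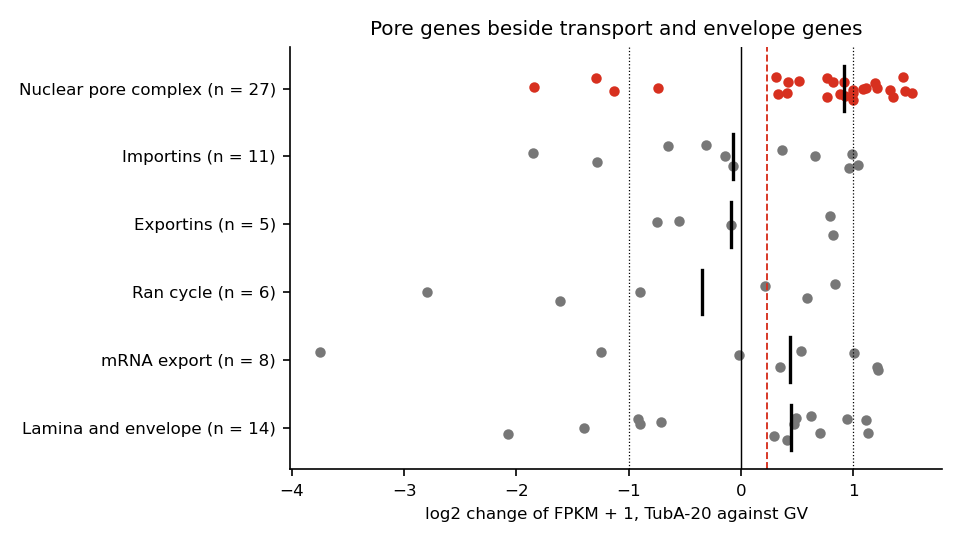
Log2 difference of FPKM + 1 between TubA-20 and GV for genes with at least 5 FPKM in 1 of both libraries, by list, where each point is 1 gene the bar is the list's median, the dotted lines mark 2-fold and the dashed line the median of all such genes. The median is 0.92 for the 27 pore members and lies between -0.34 and 0.44 for the lists of carriers and partner genes.

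In the lamina, *Lmnb1*, which encodes lamin B1, had 3.40, 6.46, 4.32 and 5.15 FPKM. *Lbr*, the lamin B receptor, and *Tor1aip1*, an inner membrane protein, were above GV in TubA-20 by 1.13 and 1.11, under 2-fold with the median difference set to 0, while *Lmnb2* and *Syne3*, a linker of nucleus and cytoskeleton, had log2 differences of -1.40 and -2.07.

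Lengths were taken from the annotation as features that the choice by symbol did not use. The members' coding length, known for 31 of them, had a median of 2457 bases and ran from 816 to 9159, against a median of 1287 for genes with at least 5 FPKM. Their 3′ UTRs had a median of 504 bases, between 0 and 3483, against a median of 835 for genes with at least 5 FPKM. Over the 26 annotated members with at least 5 FPKM in 1 library, the median coding length was 2341.5 bases and the median 3′ UTR 388. Genes at that level with a 3′ UTR had a median 3′ UTR of 856 bases. Over all genes with at least 5 FPKM, the difference between TubA-20 and GV had a Pearson correlation of 0.29 with the log of coding length across 7864 genes, and over 26 members it was -0.21 (Spearman's rho 0.28 and -0.23). Between MII and GV, the Pearson correlation with coding length was 0.34 over all these genes and -0.03 over the members. With the log of 3′ UTR length it had the same sign in both sets, at 0.34 and 0.11 for TubA-20 against GV and 0.36 and 0.19 for MII against GV. Each correlation is across genes of the same 2 libraries and describes them without a test. Exons of *Pom121* overlap those of *Nsun5* on the opposite strand over 11.9% of its exon bases, and *Nup35* overlaps *Dusp19* on the same strand over 131 bases. *Nsun5* stood at 17.6, 29.0, 22.1 and 43.9 FPKM, the same order as *Pom121*, and whether reads were shared was not tested.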

How the data were processed

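mRNA of pooled mouse oocytes was sequenced in 4 libraries, 1 per condition. The deposited values are FPKM that the authors made from strand-specific reads with Cufflinks on mm10. The submitters' processing notes name STAR 2.5.0, Cufflinks and Cuffdiff 2.2.1, without roles. No fragment counts are in this table, so no counting interval is given. Relative depth was estimated from low FPKM values, but the estimate was not used. Of 21959 entries, 165 carried no symbol, and 2 symbols with several entries were summed, leaving 21957 genes.

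Differences are log2 of FPKM + 1 (pseudocount 1), called past 2-fold, with the 5 comparisons described by counts and medians beside all genes. Members and gene lists were chosen with earlier results of these data known. FPKM in every library was given for members with at least 5 FPKM that were more than 2-fold apart between any 2 libraries, for the highest and lowest of each structural group, and for *Nup62cl* and *Nup210l*. Partner genes were named past 2-fold, at most 3 per list and direction, plus *Ran*, *Kpnb1*, *Xpo1*, *Lmnb1* and *Kpna7*. Transcripts, lengths and 3′ ends came from GENCODE M21 (GRCm38), and that description was chosen after seeing the data. Protein length and FG content were planned and are not analysed here. The counting was tested on simulated data, with changes well past 2-fold in genes of at least 5 FPKM in every library. That test does not bear on calls near 2-fold, on low members or on noise between libraries. Alternatives were another pseudocount, threshold, low-value filter and scaling. Python 3.11.15, pandas 2.3.3, numpy 2.4.6, scipy 1.17.1 and matplotlib 3.10.9 were used. The sources differ on the RNA extraction reagent. Libraries came from single pools, so condition and pool cannot be told apart.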

Additional observations from a re-analysis of the deposited data

Results flagged for a closer look

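*Nup62* was singled out because the doses lay on opposite sides of MII and more than 2-fold apart. Its log2 difference from MII was -0.42 at 10 µM TubA and 0.62 at 20 µM, a gap of 1.04 between 69.1 and 143 FPKM. The gap fell under 2-fold under other scalings, at 0.97 with the median difference of all genes set to 0 and 0.84 with *Gapdh* set equal, and was 1.05 with equal upper quartiles. The difference was not tested, since each dose is 1 library. Of the 7897 genes with at least 5 FPKM in 1 library, 1193 (15.1%) met the same condition, 98 of them with TubA-20 above MII as for *Nup62* and 1095 with TubA-20 below it.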

How the results depend on the processing

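No paired analysis was possible because each condition is 1 library, and for the same reason no library could be left out. Of the alternative values for counts and medians over the members, 79 stayed within the limits set for them and 26 moved. The limits were 0.1 on the log2 scale for a median and a factor of 1.5 for a count. No median changed sign. The 1.5-fold threshold cannot alter a median, so the medians under it count among those that stayed by construction. With the median difference of all genes set to 0, members more than 2-fold higher numbered 1 (MII), 0 (TubA-10) and 5 (TubA-20) against GV (2, 1 and 9 before), 2 were lower in MII (1 before), and the medians were 0.38, 0.28 and 0.57. With *Gapdh* set equal, 7 members were higher in MII and 5 in TubA-10 against GV, with medians of 0.75 and 0.69, and against MII in TubA-20 1 was lower and the median was 0.073. With equal upper quartiles, equal *Gapdh* or a pseudocount of 0.1 FPKM, 12 members were higher in TubA-20 against GV. With a 1.5-fold threshold, 15 (MII), 11 (TubA-10) and 18 (TubA-20) members were higher against GV, 3 and 2 were lower in MII and TubA-10, 1 was higher against MII in TubA-10, and 2 were higher and 1 lower in TubA-20. With a pseudocount of 0.1 FPKM, 2 were lower in MII against GV and 1 in TubA-20 against MII. Without *Nup62cl*, *Nup210l*, *Sec13* and *Seh1l*, 1 was higher in MII and 0 in TubA-10. With only members of at least 5 FPKM, the TubA-20 median against GV was 0.92. The order of the libraries and the gap of *Nup62* between the doses were recomputed under the scalings after seeing the data. The cause of the shifts between scalings was not tested. The estimate of depth from FPKM was not used, and low members are the least precise. The study reports fewer reads for the GV and TubA-20 libraries than for MII and TubA-10.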

Other observations

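Among the partner genes, further genes of mRNA export passed 2-fold between TubA-20 and GV. *Mcm3ap*, which encodes the scaffold of the TREX-2 complex at the basket, had 23.1 (GV), 45.6 (MII), 36.5 (TubA-10) and 54.9 FPKM (TubA-20), and its partner *Pcid2* had 29.99, 43.3, 46.8 and 71.1. *Gle1*, which activates the export helicase, had 53.6, 70.5, 63.9 and 109. *Alyref*, an export adaptor, was the reverse, at 10.9, 6.54, 8.72 and 4.01 FPKM. With the median difference of all genes set to 0, none of the mRNA export genes was more than 2-fold higher.

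*Kpna3*, an importin alpha, had 55.2, 94.3, 92.8 and 115 FPKM, and *Ipo4*, an importin for histones, had 5.37, 1.56, 1.79 and 0.768. *Rangrf*, a Ran-binding protein, had 19.5, 8.16, 12.9 and 5.71 FPKM. *Hdac6*, the target of the compound, was at 4.44, 3.74, 2.998 and 1.86 FPKM, so that its mRNA was below 5 FPKM in every library.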
